A study of Mus musculus with 3 samples.

Results

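C-type lectin receptors with a part in antigen uptake were followed across dendritic cell (DC) classes and treatment groups of mouse spleen. The members were fixed as a list of 10 genes, of which 9 had a row among the 31053 genes of the deposited count table: Cd209a, Clec10a, Clec12a, Clec9a, Cd207, Clec4a2, Clec4a4, Clec4n and Ly75. The other gene, Clec7a, was not analysed here. Spleen DCs of C57BL/6 mice had been enriched on a gradient, sorted as GFP-negative, depleted of other cells with magnetic beads, tagged with hashtag antibodies and pooled into 1 capture of the 10x 3′ v3 chemistry. The hashtag names gave 6 samples: 2 from leukemia-bearing mice on vehicle, 2 from leukemia-bearing mice on panobinostat, 1 from wild-type (WT) mice on vehicle and 1 from WT mice on panobinostat, each after 2 days of treatment. Panobinostat is an inhibitor of histone deacetylases, and vehicle is read from the code D5W as dextrose in water. The leukemia line, the age of the mice and the number of animals behind a hashtag are not given in the sources used here, so p-values across hashed samples measure the spread between these samples, which may be technical.

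C-type lectins are surface receptors that bind sugars or other ligands through a shared fold, and many carry their cargo into endosomes for presentation to T cells. They differ in the signal they send: Clec4n pairs with the activating chain encoded by Fcer1g, Clec9a signals through Syk from its own tail, and Clec12a, Clec4a2 and Clec4a4 carry inhibitory motifs. In spleen, plasmacytoid DCs (pDCs) secrete type I interferon, type 1 conventional DCs (cDC1s) take up dead cells and cross-present their antigens, type 2 conventional DCs (cDC2s) present mainly to helper T cells, and mature DCs have switched from uptake to presentation and migration.

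After hashtag, quality and doublet filters 18383 cells with a median of 6001 UMIs (unique molecule counts) were kept, and clusters of these cells were named from markers that included none of the members. The 4 DC classes held 2720 pDC-like, 2770 cDC1-like, 3611 cDC2-like and 3692 mature DC-like cells. The antibody libraries followed these names, with a median of 457 Siglec-H UMIs per pDC-like cell (240 to 244 elsewhere among DCs) and CD11c medians from 393 UMIs in the pDC-like to 2657 in the cDC1-like class. The classes differed in depth, with medians of 11128.5 UMIs per cDC1-like cell and 4454.5 to 5245 in the other DC classes. Leukemia vehicle 2 stood apart in composition, since 1224 of its 2671 kept cells were erythroid-like, and WT panobinostat held only 39 pDC-like cells. Levels below are in CPM, a gene's UMIs scaled to the total gene UMIs of all cells of a class in a hashed sample. They were compared within a gene, since 3′ counts carry no scale per length between genes.

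Of the 9 genes, 6 lie on chromosome 6 (GRCm38, GENCODE vM21). Clec4a4 (122990367 to 123024105, plus strand), Clec4a2 (123106428 to 123143999, plus) and Clec4n (123229843 to 123247021, plus) follow each other with gaps of 82322 and 85843 bases. Clec12a (129342691 to 129365303, plus) and Clec9a (129408862 to 129424763, plus) form a second group, 43558 bases apart, and Cd207 (83671215 to 83677857, minus) lies alone. Ly75 is on chromosome 2 (60292103 to 60383303, minus), Cd209a on chromosome 8 (3743397 to 3748984, minus) and Clec10a on chromosome 11 (70156197 to 70170834, plus). Near-identical copies can share 3′ reads. The last 500 bases of the Clec10a gene's transcripts matched Mgl2 at 94.2% identity over 257 bases, and those of Clec4a4 matched Clec4a3 at 81.7% over 504 bases, so values of Clec10a and Clec4a4 are uncertain to that extent.

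RefSeq promoter entries (GRCm38.p6) were found for 6 of the 9 genes. The 4 shown belong to genes whose levels separate pDC-like cells (Cd209a, Clec12a) from cDC1-like cells (Clec9a, Cd207). Each runs 5′ to 3′ on the gene's strand, from 250 bases before the start into the first 10 transcribed bases, and capitals mark matches on either strand to AGGAAG, the core bound by ETS factors such as PU.1, or to GGAA and GAAA with any 2 bases between them, the composite site of ETS and IRF factors.
Cd209a, chr8:3748975-3749234, minus: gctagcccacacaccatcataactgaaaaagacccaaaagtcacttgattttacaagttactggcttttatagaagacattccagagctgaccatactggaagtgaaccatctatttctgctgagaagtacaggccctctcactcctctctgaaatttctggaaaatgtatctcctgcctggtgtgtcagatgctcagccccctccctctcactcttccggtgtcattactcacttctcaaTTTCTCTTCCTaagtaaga
Clec12a, chr6:129349994-129350253, plus: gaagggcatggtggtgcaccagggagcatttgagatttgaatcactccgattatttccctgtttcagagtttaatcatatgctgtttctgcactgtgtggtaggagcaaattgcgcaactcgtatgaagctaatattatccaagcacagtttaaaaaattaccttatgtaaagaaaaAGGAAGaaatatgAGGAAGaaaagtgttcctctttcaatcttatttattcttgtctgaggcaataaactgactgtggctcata
Clec9a, chr6:129408612-129408871, plus: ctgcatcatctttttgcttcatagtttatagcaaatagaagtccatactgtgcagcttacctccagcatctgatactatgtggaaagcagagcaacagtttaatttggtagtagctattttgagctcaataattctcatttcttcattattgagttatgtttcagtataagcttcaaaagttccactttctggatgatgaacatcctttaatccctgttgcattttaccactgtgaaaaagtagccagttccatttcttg
Cd207, chr6:83677848-83678107, minus: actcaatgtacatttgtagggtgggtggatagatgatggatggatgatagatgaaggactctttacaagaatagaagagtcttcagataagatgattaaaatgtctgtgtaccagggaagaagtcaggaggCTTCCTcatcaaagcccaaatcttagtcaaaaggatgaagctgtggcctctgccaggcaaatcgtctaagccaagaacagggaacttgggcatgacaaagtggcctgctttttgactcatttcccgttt
The Cd209a window held a composite match and an AGGAAG match that overlap each other at the start site. The Clec12a window held 2 AGGAAG matches, the first beginning 73 bases before its RefSeq start, and the Cd207 window held 1. The Clec9a window, like those of Ly75 and Clec4a2 that are not printed, held none. The RefSeq starts used for Clec12a and Clec4a2 lie inside the GENCODE gene spans given above, downstream of the first base of each gene. Among 32851 promoter windows of the same length, 30.6% held AGGAAG and 2.38% the composite. GAAA repeated after any 2 bases (3.065% of all windows), CAGGTG (17.8%) and the run GGGAA followed directly by TTTCC (0.085%) were also searched on both strands and matched none of the 6 windows. A match is a description of letters and not a bound site.

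Each of the 9 genes had a top class whose lowest hashed sample lay above the highest sample of every other DC class. The share of all genes separated in this way was not counted, so this is not read as particular to the lectins. Clec12a, Cd209a and Clec10a were highest in pDC-like cells, Clec9a and Cd207 in cDC1-like cells, Clec4a2, Clec4a4 and Clec4n in cDC2-like cells, and Ly75 in mature DC-like cells. Receptors with inhibitory motifs were thus found in more than 1 class, Clec12a with its top in pDC-like and Clec4a2 and Clec4a4 with theirs in cDC2-like cells.

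**Figure D1:**
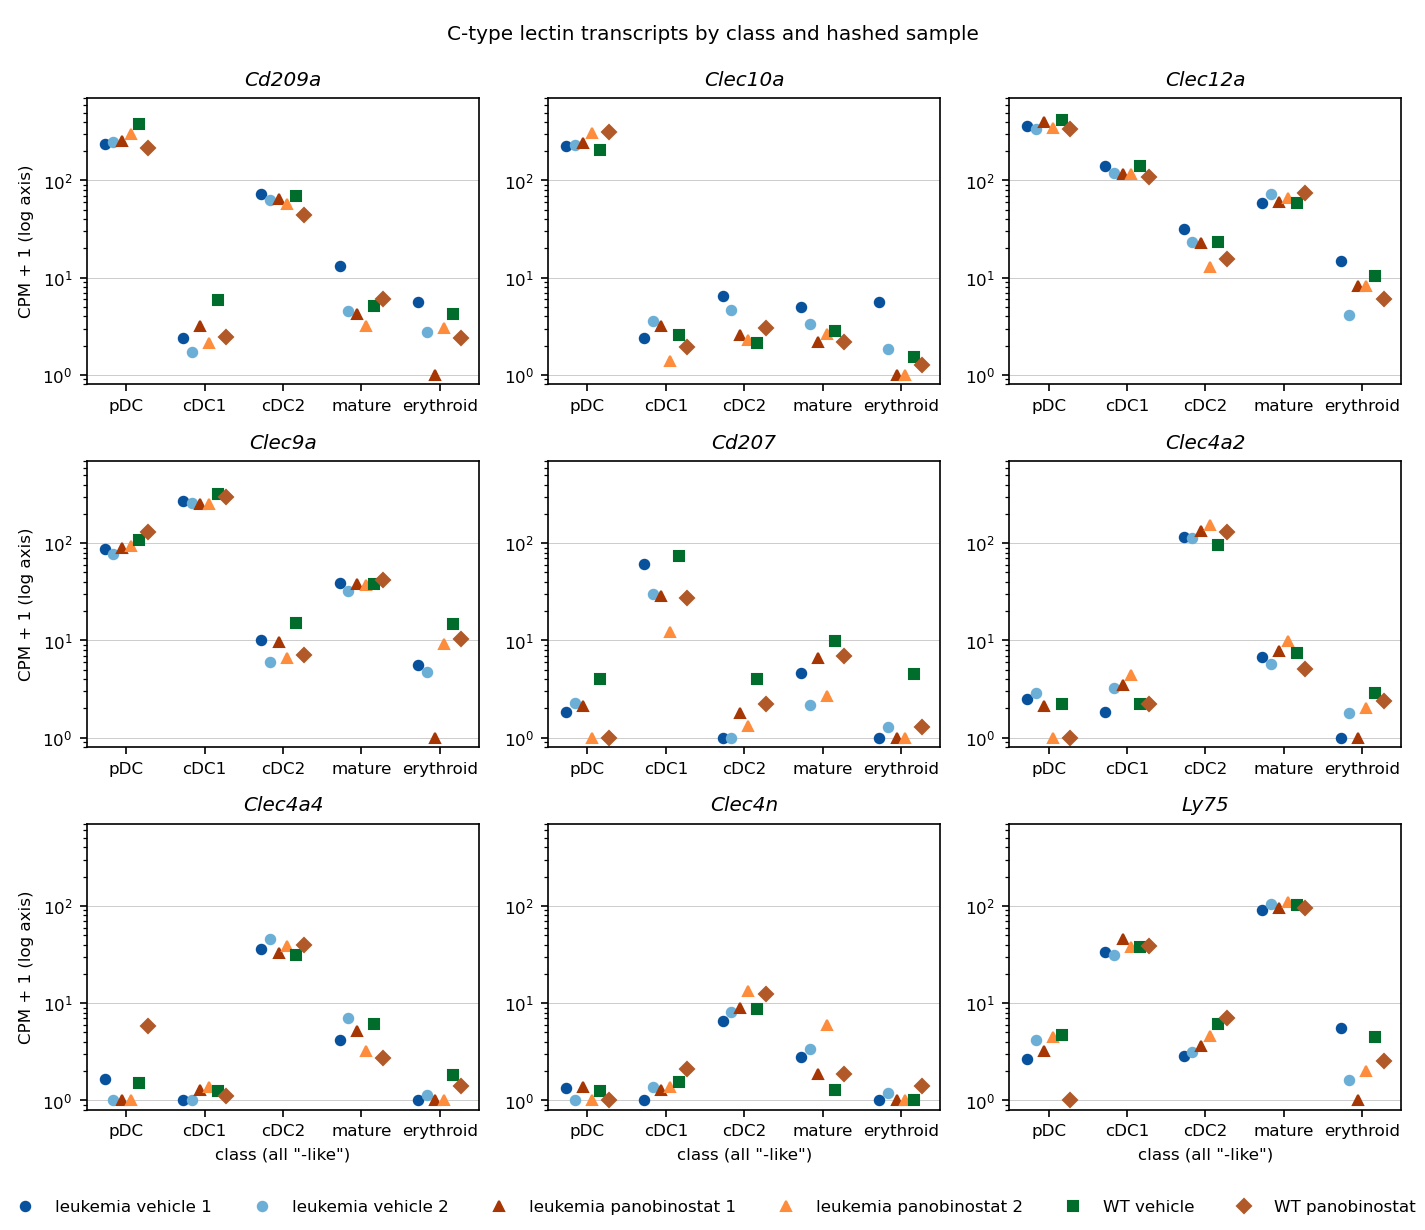
Level of each gene (CPM + 1, log axis) in the 4 DC classes and in erythroid-like cells, with 1 point for each of the 6 hashed samples. In each panel the 6 points of the top class lie above all points of the other DC classes, and Cd207 has the widest spread within its top class (11.1 to 73.3 CPM).

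Class differences were tested with edgeR on 24 class-by-sample sums with the hashed sample as a block, and a gene was called at an adjusted p under 0.05 and a fold of 1.5 or more. The clusters came from the same cells, although without the 9 genes, so these p-values measure how steady a difference was over the hashed samples. Against a background of 36.7% of 10143 genes called (17.2% higher, 19.4% lower), cDC1-like over cDC2-like cells gave 4 members higher and 4 lower. The pDC-like over cDC1-like contrast gave 3 higher and 3 lower (45.9% of all genes called, 23.2% higher and 22.8% lower), and pDC-like over cDC2-like gave 4 and 3 (43.6%, 22.2% and 21.3%). Mature DC-like over cDC1-like cells gave 5 higher and 3 lower (49.5%, 25.2% and 24.3%), over cDC2-like cells 4 and 4 (46.1%, 22.8% and 23.2%), and over pDC-like cells 5 and 4 (55.5%, 27.9% and 27.6%). One of the 5 members higher over cDC1-like cells, Clec4n (1.12, edgeR adjusted p = 0.048), overlapped between these classes (0.284 to 4.98 and 0 to 1.08 CPM), and its direction turned under 3 other settings (−0.026 by the hashtag ratio call, −0.45 at resolution 2, −0.48 with members allowed in clustering). The median log2 fold change of the 9 members was 0.00 for cDC1-like over cDC2-like cells and 2.25 for mature over pDC-like cells. Over all genes tested it was 0.00 and −0.04. The 2.25 does not describe the summed lectin level. Clec4a2, Cd207, Clec4a4 and Clec4n had sample medians of 6.12, 4.62, 3.65 and 1.34 CPM in mature DC-like cells. In pDC-like cells these were 1.17, 0.971, 0.25 and 0.125 CPM. The members lower in mature DC-like cells, Clec12a, Cd209a, Clec10a and Clec9a, had pDC-like medians of 355, 249, 234 and 90.3 CPM.

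**Figure D2:**
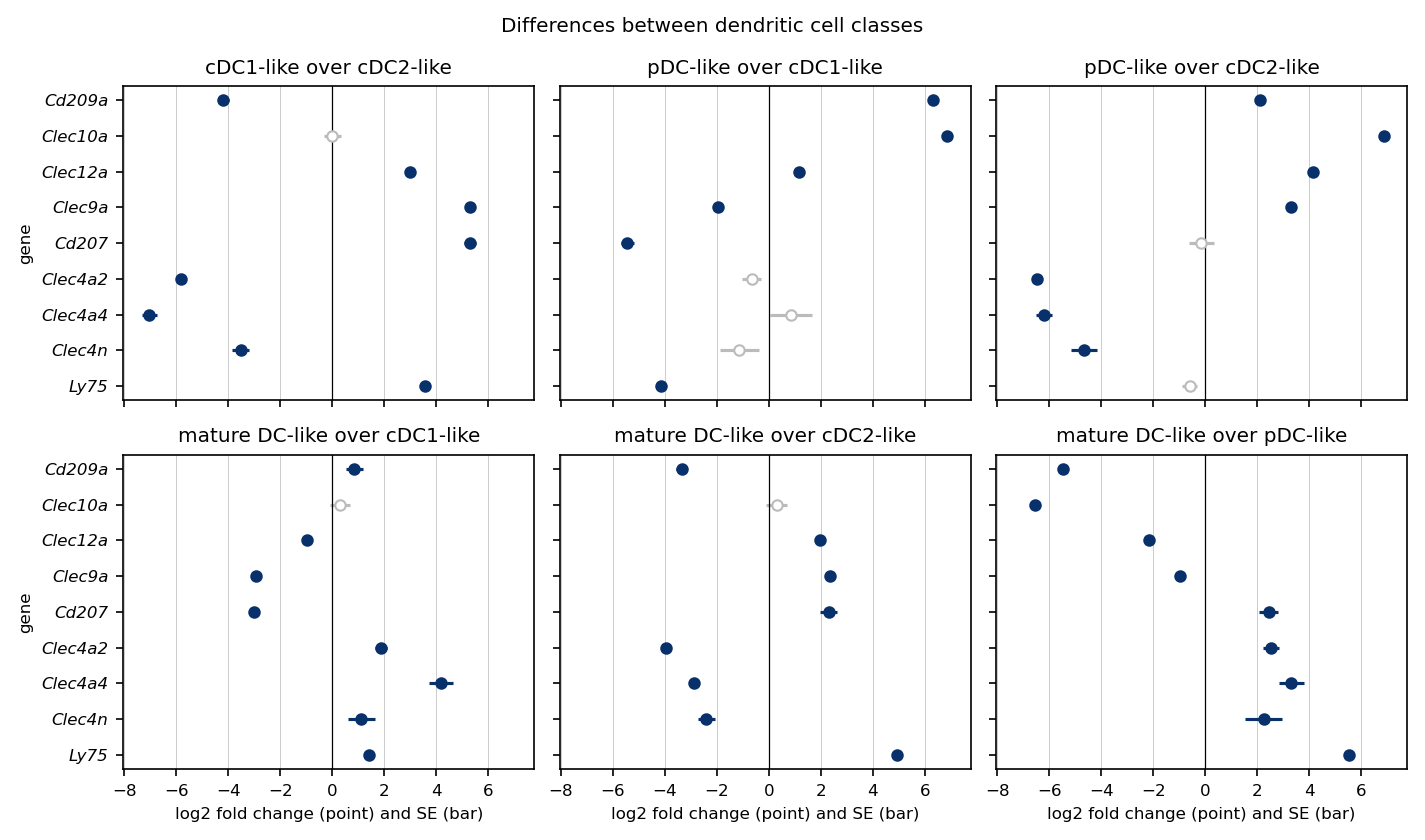
Log2 fold change of the 9 genes (points) with the standard error (bars) in the 6 class contrasts. Filled dark points were called by edgeR and open grey points were not, and the sign of the contrast of cDC1-like over cDC2-like cells splits Clec9a, Cd207, Ly75 and Clec12a from Clec4a4, Clec4a2, Cd209a and Clec4n.

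Clec10a, highest in pDC-like cells, encodes a macrophage galactose-type lectin. It stood at 223 and 229 CPM in leukemia vehicle 1 and 2, 240 and 306 in leukemia panobinostat 1 and 2, 205 in WT vehicle and 317 in WT panobinostat. In the other DC classes no sample passed 5.52 CPM, so Clec10a was close to restricted to pDC-like cells among the 4 classes (log2 fold change 6.87 over cDC1-like cells, SE 0.169, edgeR adjusted p = 3.5e-26). Among the other 3 classes edgeR called no difference of Clec10a. With the unnamed clusters put in their best class, cDC1-like over cDC2-like was −1.60 (adjusted p = 8.1e-05).

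Cd209a, a mouse relative of the human pathogen receptor DC-SIGN, was shared by pDC-like and cDC2-like cells. In pDC-like cells it reached 236, 246, 252, 302, 383 and 216 CPM in the same order of samples, and in cDC2-like cells 71.2, 62.7, 63.2, 55.9, 67.9 and 43.1 CPM. The 2 sets did not overlap, and the difference was 2.10 on the log2 scale (SE 0.134, edgeR adjusted p = 3.4e-15). In mature DC-like and cDC1-like cells it ranged from 0.743 to 12.1 CPM, and these 2 classes overlapped.

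Clec12a, an inhibitory receptor for uric acid crystals and other signs of cell death, had, like Clec9a, a graded order in which no 2 neighbouring classes overlapped. It ranged from 335 to 421 CPM in pDC-like, 108 to 141 in cDC1-like, 57.5 to 74.1 in mature DC-like and 11.8 to 30.7 in cDC2-like cells. The lowest cDC2-like sample lay within the range of erythroid-like cells (3.11 to 13.8 CPM). The step from cDC1-like to pDC-like cells was 1.18 on the log2 scale (SE 0.101, edgeR adjusted p = 4.9e-12), and that from cDC2-like to cDC1-like cells 2.97 (SE 0.127).

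Clec9a, the receptor for actin filaments exposed by dead cells and a hallmark of cDC1s, was highest in cDC1-like cells at 268, 260, 249, 251, 316 and 295 CPM. It was next highest in pDC-like cells at 86.6, 76.4, 87.6, 92.9, 107 and 130 CPM, a difference of −1.96 on the log2 scale (SE 0.089, edgeR adjusted p = 3.9e-19). Mature DC-like cells held 31.0 to 40.7 CPM. The cDC2-like level of 5.05 to 14.02 CPM overlapped that of erythroid-like cells (0 to 13.8 CPM), which should lack the gene, and is not read as expression.

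Cd207 encodes langerin, a mannose-binding receptor that forms the granules of Langerhans cells and is also found on a subset of cDC1s. In cDC1-like cells it stood at 60.8 and 29.0 CPM in leukemia vehicle 1 and 2, 27.4 and 11.1 in leukemia panobinostat 1 and 2, 73.3 in WT vehicle and 26.5 in WT panobinostat. Its highest sample was 6.58 times its lowest, against 1.23 to 2.26 times for the other 8 genes in their top classes. In the other DC classes no sample passed 8.81 CPM. The cDC2-like (0 to 2.98 CPM) and pDC-like levels (0 to 2.99 CPM) lay within the range of erythroid-like cells (0 to 3.53 CPM). So did 2 of the 6 mature DC-like samples, and none of these is read as expression.

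The cDC2-like group joined the 3 neighbouring genes of chromosome 6. Clec4a2, an inhibitory lectin of the DCIR family, was at 116, 113, 134, 154, 94.5 and 130 CPM. Clec4a4, the DCIR relative recognised by the antibody that first marked splenic DCs outside the cDC1 line, was at 35.0, 44.7, 32.0, 37.5, 30.6 and 39.1 CPM. Both were lower in cDC1-like cells, with log2 fold changes of −5.82 (SE 0.138, edgeR adjusted p = 1.1e-25) and −7.03 (SE 0.290, edgeR adjusted p = 7.1e-20). Clec4n, which encodes Dectin-2, an activating receptor for fungal mannans, was sparse in cDC2-like cells at 5.52 to 12.5 CPM. Its highest level lay outside the DC classes, in red pulp macrophage-like cells, with 289 CPM over all 188 cells and 210 to 409 CPM in the 3 samples with 10 or more of them.

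Ly75 encodes DEC-205, an endocytic receptor of the mannose receptor family used to target antigens to DCs. In mature DC-like cells it stood at 89.4, 103, 94.8, 109, 101 and 93.7 CPM, the most even of the 9 genes over the hashed samples. It was 30.1 to 44.7 CPM in cDC1-like, 1.84 to 6.05 in cDC2-like and 0 to 3.74 in pDC-like cells, and the last 2 overlapped. These last 2 ranges also overlapped that of erythroid-like cells (0 to 4.61 CPM). Mature DC-like cells were above cDC1-like cells by 1.40 (log2, SE 0.090, edgeR adjusted p = 4.0e-15) and above cDC2-like cells by 4.95 (SE 0.137, edgeR adjusted p = 1.8e-24).

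Clusters within a class differed in their lectins, which was described and not tested. Mature DC-like cells fell into 6 clusters. Clusters 4 and 13 held Clec9a at 61.0 and 78.8 CPM, Clec12a at 115 and 83.1 and Clec4a4 at 0.274 and 0. Clusters 5, 11 and 20 held Clec4a4 at 6.88, 8.11 and 17.7 CPM and Clec4a2 at 7.12, 9.07 and 37.0, with Clec9a at 9.07 to 28.5. Cluster 9 lay on neither side, with Clec9a at 14.5 CPM, Clec12a at 41.3, Clec4a2 at 2.36 and Clec4a4 at 0.786. Cd207 and Cd209a followed this division only in part. Cd207 was at 15.1 CPM in cluster 13 and 7.82 in cluster 4. It was at 12.3 in cluster 20, 2.21 in cluster 5, 1.43 in cluster 11 and 2.75 in cluster 9. Cd209a was at 9.58 CPM in cluster 5, where 23 of its 39 UMIs came from leukemia vehicle 1. It was at 5.02 in cluster 13, 4.77 in cluster 11, 4.63 in cluster 20, 3.15 in cluster 9 and 2.88 in cluster 4. Ly75 was present in all 6, from 46.8 CPM in cluster 9 to 160 in cluster 4. Xcr1, a cDC1 marker, was at 63.9 CPM in cluster 4, and Sirpa, a cDC2 marker, at 5.08 in cluster 4 and 132 in cluster 5. Cluster 4 made up 23.4 to 38.3% of mature DC-like cells over the 6 hashed samples and cluster 5 made up 11.9 to 39.0%.

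Several clusters that met no naming rule were rich in these lectins. Cluster 14 (322 cells, led by Cd209e, Ccr1 and Ly6i) had the highest Cd209a level of all clusters, 482 CPM over its cells and 421 to 666 CPM in the 6 hashed samples, with Clec10a at 114 CPM and Clec12a at 136. Cluster 16 (281 cells, led by Ifit3, Clec4a3 and Clec4b1) held Cd209a at 316 CPM, Clec4a2 at 93.1, Clec12a at 96.9 and Clec4n at 43.0. Its Cd209a ran from 165 to 741 CPM over the 6 hashed samples. In leukemia vehicle 2 it stood above cluster 14 (741 against 421 CPM). The monocyte gene Lyz2 stood at 2845 CPM in cluster 16 and 34.8 in cluster 14. Cluster 22 (117 cells, pDC markers, led by Ifi44) held the lectins of pDC-like cells, with Clec9a at 177 CPM beside 92.1 in pDC-like cells. Clusters 7 and 10, which carried cDC1 markers below a lead of pancreatic acinar genes, held Clec9a at 236 and 222 CPM and Cd207 at 39.4 and 37.8. Cluster 24 (84 cells, led by Sned1, Plcl1 and Map1b) had the highest Ly75 level of all clusters, 228 CPM, with Clec12a at 175. This Ly75 level came from 34 UMIs, with 0 in leukemia vehicle 2 and 2 in leukemia panobinostat 1. Its rank above cluster 4, at 160 CPM from 1164 UMIs, is therefore uncertain.

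**Figure D3:**
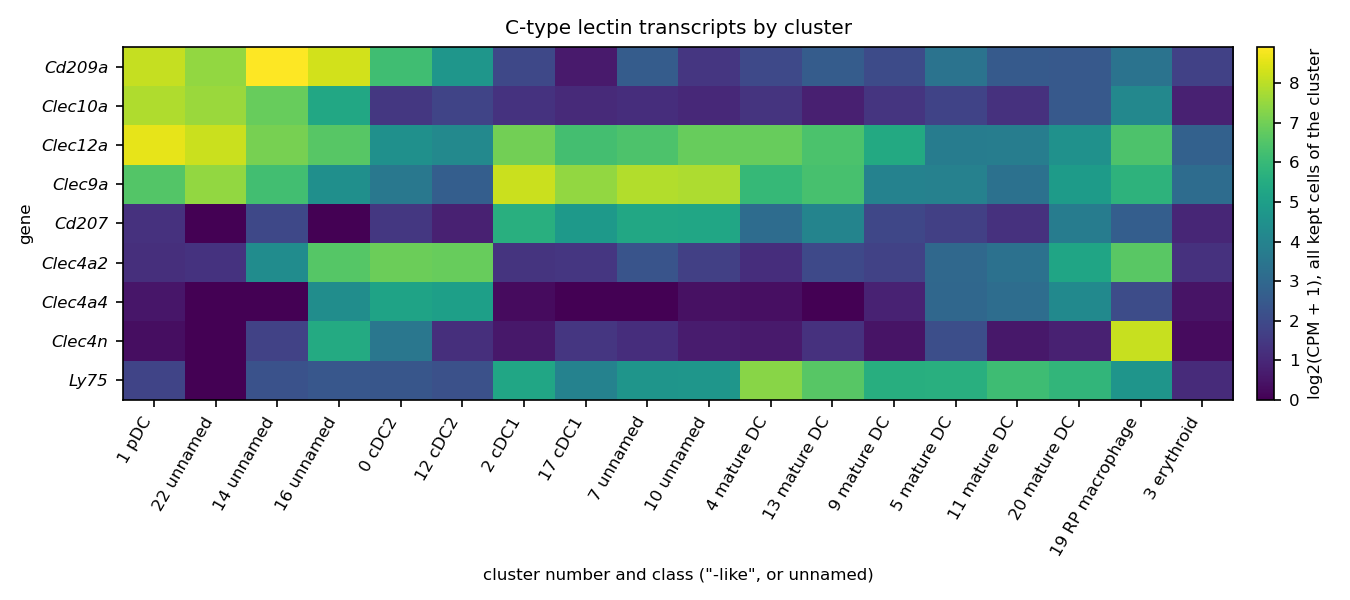
Level of each gene, log2(CPM + 1) over all kept cells, in 18 of the 28 clusters, grouped by class. Among those shown, cluster 14 is brightest for Cd209a, cluster 19 (red pulp macrophage-like) for Clec4n and cluster 4 (mature DC-like) for Ly75, and among mature DC-like clusters Clec9a and Clec12a are highest in clusters 4 and 13 and Clec4a2 and Clec4a4 in cluster 20.

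Shares of cells with a UMI gave the same top DC class as CPM for all 9 genes once depth was matched. With each cell thinned to 2000 UMIs, Clec12a was detected in 51.8% of 2696 pDC-like cells (95% exact binomial interval 49.9 to 53.7%), Clec10a in 35.2% and Cd209a in 32.8%. Clec9a was detected in 44.0% of 2728 cDC1-like cells (42.1 to 45.9%) and Ly75 in 15.5% of mature DC-like cells. Among erythroid-like cells, thinned alike, the shares were 1.17% for Clec9a, 1.03% for Clec12a, 0.516% for Cd209a and 0.422% for Ly75. They were 0.141% for Cd207 and 0% for Clec10a (0 of 2131 cells, exact interval up to 0.173%). These shares are read as background, in which free RNA and leftover doublets were not told apart. Intervals cover counting error only. Without thinning, Clec9a was detected in 88.9% of cDC1-like and 7.61% of erythroid-like cells. Unthinned shares for Ly75 were 30.9% in cDC1-like and 30.4% in mature DC-like cells, where the cDC1-like cells were the deeper ones, against 6.42% and 15.5% after thinning.

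Single cells were also read for pairs of lectins, as a description. In thinned pDC-like cells Cd209a and Clec10a were found together in 11.4%, beside 11.5% for the product of their shares, and Cd209a and Clec12a in 18.5% beside 16.96%. The ratio of the observed to the product share lay between 0.929 and 1.17 for all 6 pairs of these genes and Clec9a. In mature DC-like cells Clec9a and Clec12a met 2.14 times as often as the product of their shares (34 cells), and Clec4a4 and Clec4a2 10.1 times as often, from 3 cells. In cDC2-like cells Cd209a and Clec9a shared 1 cell, 0.141 times the product, and Clec4a4 and Clec4a2 shared 59 cells, 1.26 times.

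Across the 24 class-by-sample sums, the genes most like each member were listed by Pearson's r of log2(CPM + 1) among 10134 other genes. These sums share samples and classes, so r mainly follows class and carries no p. Itgam and Dtx1, listed below, were themselves among the cDC2 markers used to name clusters. Clec10a was most like Padi1, Ctsl and Atp2a1 (r = 0.99 each), and Cd209a most like Dgkd, Slc44a2 and Tnfrsf13b (0.98 each). Clec9a was most like Pdia5, Psap and Oxct1 (0.98, 0.98 and 0.96), Clec12a most like Pafah1b3, Cmtm7 and Rnaset2b (0.99, 0.98 and 0.97), and Cd207 most like 4930455G09Rik, Fuca1 and A530099J19Rik (0.95, 0.94 and 0.94). For Clec4a2 they were Itgam, Abcb1a and Csnk1g3 (0.97 each), for Clec4a4 Dtx1, Il1r2 and Dab2ip (0.97, 0.96 and 0.95), for Clec4n Itgam, Sirpb1b and Ttk (0.95, 0.94 and 0.94), and for Ly75 Lima1, Serpinb9 and Vcam1 (0.98, 0.97 and 0.97).

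With panobinostat, 1 of the lectins changed past the threshold in the 4 classes: Cd207 fell by 1.31 on the log2 scale in cDC1-like cells (SE 0.215, edgeR adjusted p = 0.0038, disease state as an additive term), the lowest fold change of the 8992 genes tested there. It was 1 of 4 members tested in that class, where 2.01% of all genes were called. By sample the 29.0 CPM of leukemia vehicle 2 lay next to the 27.4 CPM of leukemia panobinostat 1. The 3 panobinostat samples lay below the 3 vehicle samples without overlap, by that small margin. Counting intervals (exact Poisson, 95%) were 22.9 to 36.2 CPM for leukemia vehicle 2 and 22.3 to 33.4 for leukemia panobinostat 1, so these 2 samples were not apart at this depth. The share of thinned cDC1-like cells with a Cd207 UMI was 10.2 and 5.83% in leukemia vehicle 1 and 2, 5.78 and 1.93% in leukemia panobinostat 1 and 2, 11.8% in WT vehicle and 3.89% in WT panobinostat. The positive cells held 1.19 to 1.5 UMIs each.

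The fall of Cd207 was also seen within the leukemia samples alone (−1.14, edgeR adjusted p = 0.048), and the WT pair went from 73.3 to 26.5 CPM. It was no longer called by DESeq2 (adjusted p = 0.46), without WT vehicle (−1.14, edgeR adjusted p = 0.058) or without the doublet score filter (−1.21, adjusted p = 0.051). Without leukemia vehicle 2 it was −1.49 (edgeR adjusted p = 2.3e-05). A cycling cluster, 17, made up 3.61, 5.31 and 4.57% of cDC1-like cells in the vehicle samples and 6.45, 16.7 and 21.3% in the panobinostat samples, and without it the change was −1.27 (edgeR adjusted p = 0.0037). Within the non-cycling cluster 2 the levels were 60.2, 29.0, 28.1, 10.2, 73.7 and 27.8 CPM.

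Other lectins stayed below the threshold with panobinostat. In cDC1-like cells Clec9a changed by −0.06 (SE 0.068, edgeR adjusted p = 0.74), Clec12a by −0.21 (adjusted p = 0.26) and Ly75 by 0.25 (adjusted p = 0.33). In cDC2-like cells 0 of 6 members tested were called (0.12% of all genes). The nearest was Clec4a2, at 94.5 to 116 CPM in the vehicle and 130 to 154 CPM in the panobinostat samples, sets that did not overlap (log2 difference 0.45, SE 0.093, edgeR adjusted p = 0.081). It was called without the cycling cluster of that class (0.47, edgeR adjusted p = 0.010) and without the low-count filter (0.46, edgeR adjusted p = 0.0017). Clec4a2 was also called in the leukemia samples with their number as a block (0.41, edgeR adjusted p = 0.038). Same-numbered samples share only a number, so that block is an arbitrary pairing. Clec4n stood at 0.66 (SE 0.261, edgeR adjusted p = 0.53) and Clec12a at −0.56 (SE 0.210, edgeR adjusted p = 0.47). Their vehicle and panobinostat samples did not overlap either, nor did those of Clec12a in cDC1-like and Clec10a in pDC-like cells. The same held at low levels for Clec10a in mature DC-like (1.17 to 4.04 CPM) and Clec4a2 in pDC-like cells (0 to 1.91 CPM). The share of all genes without such overlap was not counted, so this is not read as particular to the lectins. For Clec10a in pDC-like cells the counting intervals of leukemia vehicle 2 (206 to 254 CPM) and leukemia panobinostat 1 (222 to 259 CPM) overlapped. In pDC-like cells 0 of 4 were called (0.193% of all genes), with Clec10a at 0.33 (SE 0.097, edgeR adjusted p = 0.29) and Cd209a at 0.02 (SE 0.113). In mature DC-like cells 0 of 7 were called (0.267%), with Ly75 at 0.11 (SE 0.116, edgeR adjusted p = 0.83). DESeq2 called 0 members in these 3 classes. At an unadjusted p under 0.05 by the same test, 587, 677 and 942 of all genes passed in pDC-like, cDC2-like and mature DC-like cells.

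**Figure D4:**
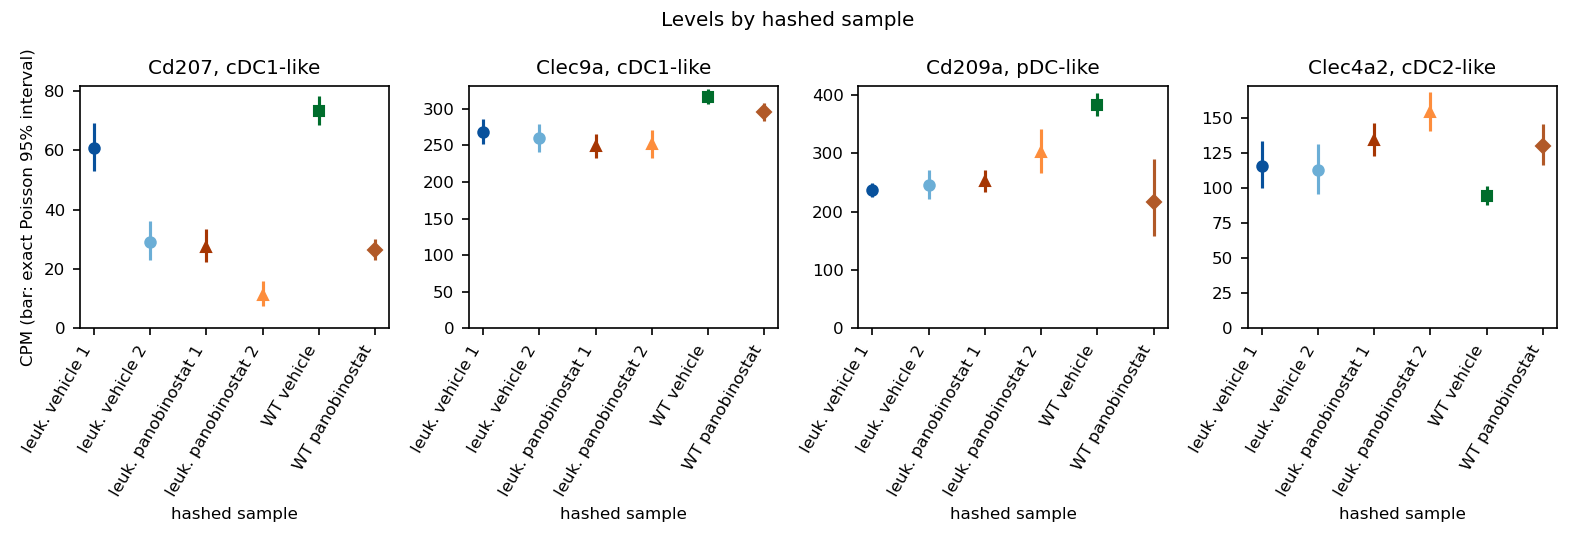
Levels (CPM) by hashed sample for Cd207 and Clec9a in cDC1-like, Cd209a in pDC-like and Clec4a2 in cDC2-like cells, with exact Poisson 95% intervals as bars. Cd207 is lowest in leukemia panobinostat 2 (11.1 CPM), Clec9a is highest in the WT samples (316 and 295 CPM), and the interval of Cd209a in WT panobinostat is wide (158 to 290 CPM from 45 UMIs).

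Between disease states, Clec9a was lower in leukemia in cDC1-like cells. Its 4 leukemia samples stood at 249 to 268 CPM and the WT samples at 295 and 316, without overlap (log2 difference −0.35, SE 0.070, edgeR adjusted p = 0.0045). It was 1 of 4 members called, where 7.72% of all genes were called. Shares of cDC1-like cells with a Clec9a UMI, thinned to 2000 UMIs, did overlap between disease states. They were 37.2 to 44.5% in the leukemia samples, 48.4% in WT vehicle and 41.6% in WT panobinostat. The call held without each hashed sample in turn (edgeR adjusted p = 0.0048 to 0.042), and after thinning cells to 2000 UMIs it was −0.30 (adjusted p = 0.26). Cd207 stood at −0.66 (SE 0.207, edgeR adjusted p = 0.062). In pDC-like cells Clec9a pointed the same way at −0.42 (SE 0.113, edgeR adjusted p = 0.092). The WT panobinostat value there, 130 CPM, came from 27 UMIs in 39 cells. Clec9a in erythroid-like cells, read as background, was also higher in WT vehicle and panobinostat (13.8 and 9.24 CPM) than in the leukemia samples (0 to 8.21 CPM). The part of this background was not tested. Summed mature DC markers in cDC1-like cells were 690 to 1113 CPM in the leukemia samples and 1178 and 1347 CPM in the WT samples, and their part in these differences was not tested.

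Cd209a was the 1 member of 4 called in pDC-like cells (0.818% of all genes), at −0.49 in leukemia (SE 0.119, edgeR adjusted p = 0.045). This rested on WT vehicle, at 383 CPM (counting interval 364 to 403). The WT panobinostat sample at 216 CPM lay below all 4 leukemia samples, and without WT vehicle the value was 0.28 (edgeR adjusted p = 0.84). In cDC2-like and mature DC-like cells 0 of 6 and 0 of 7 members were called (0.217% and 1.8% of all genes; by edgeR 709 and 1067 genes had an unadjusted p under 0.05, and DESeq2 called 0 members).

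The treatment effect differed between disease states for 1 of 4 members in pDC-like cells, again Cd209a (0.227% of all genes called). The WT change minus the leukemia change was −0.99 (SE 0.226, edgeR adjusted p = 0.028). The call was lost by DESeq2, under the hashtag ratio call, without the doublet filter, at resolution 0.5, after thinning, with unnamed clusters in their best class, and without leukemia vehicle 1 (adjusted p = 0.070) or leukemia panobinostat 2 (adjusted p = 0.15), where values ran from −0.68 to −1.20. Cd209a went from 383 to 216 CPM in WT and from 236 and 246 to 252 and 302 CPM in leukemia. The WT panobinostat value came from 39 cells, in which the summed plasma cell markers stood at 4675 CPM against 171 to 208 CPM in the other 5 samples. In the other classes no member was called for this difference (0.3, 0.304 and 0.111% of all genes in cDC1-like, cDC2-like and mature DC-like cells, with 793, 639 and 547 genes at an unadjusted p under 0.05, and 0 members by DESeq2), and for Cd207 in cDC1-like cells it was −0.31 (SE 0.399, edgeR adjusted p = 0.88).

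Other C-type lectin receptors of myeloid cells, 19 of a list of 38 past the low-count filter, were also divided by class. Against cDC1-like cells, where 45.9% of all genes were called, pDC-like cells had 11 higher and 5 lower, led by Cd209c (log2 7.83), Cd209d (7.60), both relatives of Cd209a, and Clec4g (6.47), with Clec4b2 (−5.46), Cd302 (−4.10) and Clec1b (−2.43) lowest. In cDC1-like over cDC2-like cells 4 were higher (Clec4b2 5.13, Clec1b 4.17, Clec1a 4.12) and 10 lower (Clec4a1 −6.19, Clec4a3 −5.82, Klrd1 −4.72), beside 36.7% of all genes. Clec4a1 and Clec4a3 lie in the same gene family as Clec4a2 and Clec4a4. The list's median was 2.17 for pDC-like over cDC1-like and −1.01 for cDC1-like over cDC2-like cells, beside 0.01 and 0.00 over all genes.

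Of 12 tested uptake receptors that are not C-type lectins, the contrast of cDC1-like over cDC2-like cells had 7 higher and 2 lower (36.7% of all genes called), with the scavenger receptor Cd36 (5.31), the inhibitory Fc receptor Fcgr2b (2.81) and Fcgrt (2.44) highest and Sirpa (−5.97), a marker used for cDC2s, lowest. Mature DC-like cells had 3 higher and 9 lower than cDC1-like cells (49.5% of all genes called), with Fcgr4 (−3.46), Havcr2 (−3.18) and Scarb1 (−2.81) lowest and Sirpa (4.18) and Siglech (0.79) among the higher. The median of that contrast was −2.08, beside −0.02 over all genes. In the same contrast Ly75 was higher in mature DC-like cells (1.40). Sirpa and Siglech were also naming markers and were not left out of the clustering, so their class differences were partly built in.

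Of 26 signalling genes below C-type lectins, cDC1-like over cDC2-like cells had 4 higher and 8 lower, beside 36.7% of all genes called. The lowest were Cybb, an oxidase subunit (−4.87), Fcer1g, the partner chain of Clec4n (−3.59), and Fgr (−2.57), and the highest Vav3 (1.18), Inpp5d (0.93) and Vav1 (0.89). In mature DC-like over cDC1-like cells 13 were higher (Src 4.92, Cybb 3.73, Fcer1g 3.37) and 7 lower (Nfatc2 −2.21, Inpp5d −1.90, Nfatc1 −1.28), beside 49.5% of all genes. Of 25 genes of vesicle traffic and cross-presentation, cDC1-like over cDC2-like cells had 7 higher (Clnk 5.69, Rab11a 1.60, Rab43 1.52) and 1 lower (Rac2 −1.24), a share near the 36.7% of all genes called.

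The same lists were read under treatment and disease. With panobinostat, Cd69, an early activation lectin, rose in pDC-like (0.41, edgeR adjusted p = 0.042) and mature DC-like cells (0.97, adjusted p = 0.021), 1 of 13 and 1 of 11 lectins tested, where 0.193% and 0.267% of all genes were called. Fcer1g rose in cDC1-like cells (0.62, SE 0.116, edgeR adjusted p = 0.0083), 1 of 25 signalling genes, where 2.01% of all genes were called. No gene of the uptake or cross-presentation lists passed in any class by edgeR with panobinostat.

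In leukemia, where 7.72% of all genes were called in cDC1-like cells, these cells had Malt1 (−1.28), Fgr (−0.67) and Rel (−0.64) lowest among 4 of 25 signalling genes that were lower, and Havcr2 (−0.63), Fcgr2b (−0.40) and Itgax (−0.38) lower of 11 uptake receptors. Of 9 other lectins there, Cd69 was higher (0.96) and Clec4b2 lower (−0.75), and of 25 cross-presentation genes Lamp1 was lower (−0.37). In pDC-like cells Cd209d was lower (−0.68, SE 0.129, edgeR adjusted p = 0.0058) and Clec2d higher (0.49), of 13 other lectins and beside 0.818% of all genes. In mature DC-like cells, where 1.8% of all genes were called, Clec4a1 (1.42), Mrc2 (1.17) and Cd72 (0.97) of 11 other lectins and Cybb (0.80), Fcer1g (0.79) and Lyn (0.51) of 26 signalling genes were higher, and Cd36 (−0.98) of 11 uptake receptors was lower. This class sat in different clusters by disease state: cluster 11 made up 20.8 to 32.5% of it in the leukemia samples and 5.11 and 3.11% in the WT samples, and cluster 13 made up 2.38 to 7.32% against 9.54 and 19.8%. Their part in these differences was not tested.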

How the data were processed

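Gene expression, hashtag and antibody counts came from 3 libraries of 1 capture. The authors deposited UMI counts per feature and cell barcode, made with Cell Ranger 3.1.0 and Seurat 3.1.0 on mm10 (GRCm38), per the submitters' processing notes. Of 38717 barcodes, 22335 carried 1 hashtag, 13877 several and 2505 none, called against a negative binomial background per tag (quantile 0.99). Cells with 1 tag were kept from 500 detected genes upward, up to a mitochondrial share of 10% and below a doublet score of 0.5, which removed 2683 of 21066 (12.7%). Cells were clustered (Leiden, resolution 1, 2000 variable genes, 30 components, 15 neighbours, leidenalg 0.10.2) without the members and lists. List genes that were also naming markers, such as Sirpa and Siglech, were not left out. Clusters were named from fixed markers, and those that met no rule stayed unnamed.

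Counts were summed per class and hashed sample (20 or more cells) and tested with edgeR 4.0.16 quasi-likelihood fits in R 4.3.3 (TMM, low-count filter, Benjamini-Hochberg adjustment over all genes): class with sample as a block, or treatment plus disease state within a class, with an interaction term fitted apart. DESeq2 1.42.0, other filters, hashtag calls, resolutions and samples left out were alternatives; those of the interaction and those placing unnamed clusters were chosen after seeing the data. The biological coefficient of variation was 5.76 to 8.99%. The fits were tested on simulated data. CPM intervals are exact Poisson and shares exact binomial, at 95%.

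The members and lists were chosen with earlier results of these data known. Named were the members, the 3 highest and 3 lowest called genes of each list, and the 3 genes most like each member, except for list genes that are not reported here; Xcr1, Sirpa and Lyz2 levels by cluster, and the unnamed clusters described, were chosen after their values were seen. Promoters came from RefSeq (GRCm38.p6).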

Additional observations from a re-analysis of the deposited data

Results flagged for a closer look

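Cd209a in pDC-like cells was singled out because its treatment effect differed between disease states by a test of that difference: the WT change minus the leukemia change was −0.99 on the log2 scale (edgeR adjusted p = 0.028). The call was lost by DESeq2, under the ratio call, without the doublet filter, at resolution 0.5, after thinning, with unnamed clusters in their best class, and without leukemia vehicle 1 or leukemia panobinostat 2. Both leukemia panobinostat samples (252 and 302 CPM) lay above both leukemia vehicle samples (236 and 246 CPM), and the WT panobinostat sample (216 CPM, 45 UMIs from 39 cells) lay below the WT vehicle sample (383 CPM). The WT arm has 1 sample per treatment, so its own spread was not measured and is assumed to equal that of the leukemia samples. The part of the plasma cell marker RNA in WT panobinostat (4675 CPM) was not tested.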

How the results depend on the processing

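Over 23 alternative settings 2276 values were recomputed, of which 2151 kept their direction and side of the threshold, and 8 changed direction. Counts of members called between classes stayed within 1.5 times under every setting run. Direction changed for Cd209a in pDC-like cells between disease states (0.28 without WT vehicle, and −0.70 to 0.28 over samples left out), for Clec4n in mature DC-like over cDC1-like cells (−0.026 by the hashtag ratio call, −0.45 at resolution 2, −0.48 with members allowed in clustering) and for Clec10a, which edgeR did not call in the report: −1.39 at resolution 0.5 and −1.60 with unnamed clusters in their best class for cDC1-like over cDC2-like, and −1.07 and −1.13 for mature DC-like over cDC2-like cells.

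For leukemia in cDC1-like cells, members called numbered 3 without the low-count filter, 2 under the ratio call, resolution 0.5, cycling clusters left out or best class, 0 after thinning, and 1 to 2 without each sample. In pDC-like cells they numbered 0 by DESeq2 or without the doublet filter, 2 at resolution 0.5 or with best class, and 0 to 1 without each sample. In mature DC-like cells 1 was called without the low-count filter. With panobinostat 0 were called in cDC1-like cells by DESeq2 or without the doublet filter, and 0 to 1 without each sample; 0 to 1 in pDC-like cells without each sample; and in cDC2-like cells 1 without the low-count filter, without cycling clusters or with the replicate block. The interaction in pDC-like cells gave 0 by DESeq2, ratio call, no doublet filter, resolution 0.5, thinning or best class, and 0 to 1 without each leukemia sample; in mature DC-like cells it gave 1 without the doublet filter. WT samples could not be left out of that fit. The causes were not tested.

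The 2 numbered leukemia pairs share only a number: deviations of same-numbered samples correlated at 0.042, 0.015, 0.065 and 0.087 in pDC-like, cDC1-like, cDC2-like and mature DC-like cells. With the number as a replicate block, Cd207 in cDC1-like cells was −1.17 (edgeR adjusted p = 1.1e-06). Depth limits the sparse members most, with 178 UMIs of Clec4n in all cDC2-like cells and 45 of Cd209a in WT panobinostat pDC-like cells.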
